A study of Homo sapiens with 6 samples.

Results

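CD36 and 9 other genes of fatty acid and lipoprotein uptake were followed across 6 RNA sequencing libraries of Daoy cells, an established human medulloblastoma line. The 10 genes are 3 receptors (CD36, SCARB1 and VLDLR), 3 fatty acid transport proteins (SLC27A1, SLC27A3 and SLC27A4), 3 fatty acid-binding proteins (FABP3, FABP4 and FABP5) and the lipase LPL. They were taken by name from the 60554 gene identifiers in the count files. All 10 were found, and all 10 were among the 18683 genes that passed a filter on low counts and were tested. In 3 libraries the cells carried lentiviral wild-type ZBTB7B (WT), and in 3 they carried lentiviral ZBTB7B with the zinc-finger domain substitution R363L (ZFmut). Virus was left on the cells for 72 hr (multiplicity of infection 15), in medium with 10% serum, and the culture time given was 4 days. Cells without virus or with an empty vector were not analysed here, so every difference is between the protein forms and says nothing of a level without transgene. All cells came from 1 line, and the labels do not say whether the replicates were separate cultures, so p-values measure only the spread between these libraries, which may be technical. Gene counts per library ranged from 22236214 to 102730428. ZBTB7B transcript, from the transgene and the cell's own gene together, stood at 899, 863 and 951 CPM (reads scaled to the summed reads of all tested genes, with TMM factors) in WT replicates 1 to 3. It stood at 555, 547 and 627 CPM with ZFmut, a 1.57-fold lower level without overlap, and the part of this difference in the results was not tested.

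Long-chain fatty acids reach cells bound to albumin or inside triglyceride-rich lipoproteins. LPL, a lipase held at the cell surface, frees fatty acids from the triglyceride of those particles. CD36 binds fatty acids and oxidised lipoproteins at the plasma membrane, SCARB1 takes cholesteryl ester from high-density lipoprotein, and VLDLR binds apolipoprotein E-rich particles, LPL and, in brain, reelin. Transport proteins of the SLC27 family couple uptake to acyl-CoA formation, and small cytosolic binding proteins carry the fatty acid onward. CD36 is best known from adipocytes, muscle, microvascular endothelium, platelets and macrophages, in several of which the nuclear receptor PPARG drives its transcription.

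CD36 was nearly silent with ZFmut and present at a low level with WT, the largest difference among the 10 genes. LPL and VLDLR were higher with WT by smaller amounts, and SLC27A4 and SCARB1 were lower. SLC27A1, SLC27A3, FABP3, FABP4 and FABP5 overlapped between the groups. In the fit over all genes (edgeR's quasi-likelihood test, Benjamini-Hochberg adjusted p under 0.05), 3 members were higher and 2 lower with WT, and these 5 were also the members without overlap between groups. Across all 18683 genes 35.6% were called, 18.4% as higher and 17.2% as lower. A further count, of genes without overlap between groups, came to 47.2% of all genes, 24.4% higher and 22.8% lower. The members were selected on the WT and ZFmut values of these libraries, so their differences are descriptions, given without p-values, and nothing is read from the counts. The median log2 difference of the members was -0.04, against 0.0041 for all genes tested.

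**Figure D1:**
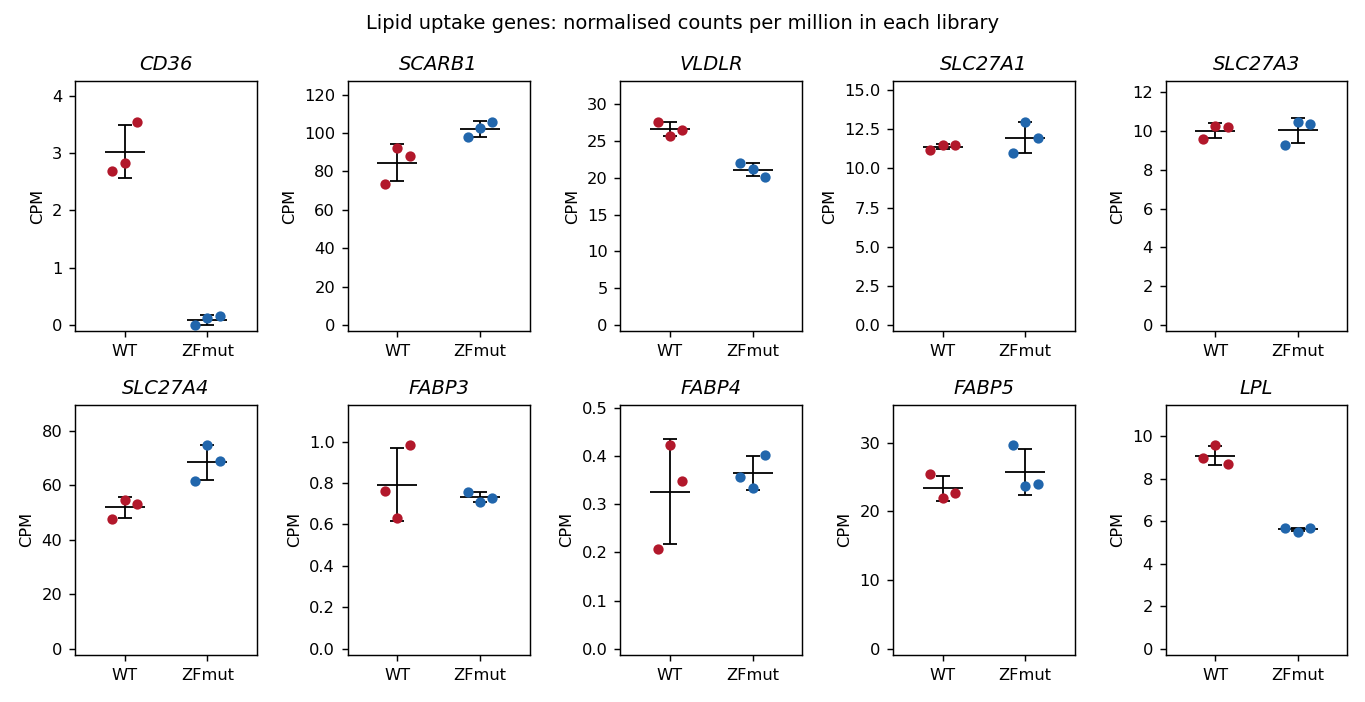
Normalised counts (CPM, vertical axes from 0) of the 10 lipid uptake genes in the 3 WT and 3 ZFmut libraries. Points are libraries, the bar is the group mean and the whiskers 1 SD. CD36, VLDLR and LPL sit higher with WT in every library, and SCARB1 and SLC27A4 lower.

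CD36 (ENSG00000135218.17, GRCh38 chromosome 7, 80369575 to 80679277, plus strand) had 78, 161 and 112 reads in the WT libraries, in the order of replicates 1 to 3. The ZFmut libraries had 0, 3 and 17 in the same order. As normalised levels these were 2.69, 2.83 and 3.55 CPM with WT and 0, 0.125 and 0.167 CPM with ZFmut, so the lowest WT library lay far above the highest ZFmut library. The group means were 3.02 ± 0.457 and 0.0973 ± 0.0868 CPM (SD, n = 3 libraries each). The fitted log2 difference was 4.48 ± 0.31 (SE), which is 22.3-fold, and ranked 5th from the top of all 18683 genes. CD36 was selected on these values and passed the low-count filter through its WT libraries, so the rank is a description only. Summed over libraries, 351 reads with WT and 20 with ZFmut gave a ratio of 22.5 per read counted to a gene. Its 95% exact binomial interval of 14.4 to 37.3 covers counting error only. The 17 reads of ZFmut replicate 3 came from a library of 102730428 gene counts. In ZFmut replicate 1, with 22236214 gene counts, a count of 0 allows a level of up to 0.135 CPM. Without ZFmut replicate 3 the log2 difference was 5.46. In mean CPM over the libraries, CD36 exceeded 23.995% of the tested genes.

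CD36 has several transcription starts, and counts per gene do not tell which of them the cells used. RefSeq's promoter table (GRCh38.p14) held windows for 6 of the 7 members searched (FABP4, FABP5 and LPL were not searched), and 6 of its windows belong to CD36. The 250 bases upstream of each start were searched on both strands for the GC box GGGCGG and for TATAAA. None of the 6 CD36 windows held a GC box, whose share over all 35116 windows of this length was 42.6%. Some of the CD36 windows overlap one another, so they are not 6 separate stretches to set against that share. VLDLR and SLC27A4 had 2 matches each, those of VLDLR overlapping, SLC27A3 had 4 and SLC27A1 had 5, and FABP3 had none. TATAAA was found in 2 CD36 windows and in 10.7% of all windows. The direct repeat was found in no window of the members and in 0.0171% of all windows. The 6 CD36 windows were AT-rich, with a GC content of 31.2 to 43.2% against a median of 58.0% over all windows, whereas VLDLR reached 78.8% and SLC27A4 75.2%. SCARB1 had no window, and LPL, the member with the largest difference after CD36, was not searched. No link between the windows and the size of a difference is therefore read. The sequences below show the contrast in GC content for CD36, VLDLR and SLC27A4. They run 5' to 3' on the gene's plus strand. Capitals mark matches to any of the motifs, and the second CD36 stretch ends where an annotated exon begins.
CD36 upstream, chr7:80638266-80638515: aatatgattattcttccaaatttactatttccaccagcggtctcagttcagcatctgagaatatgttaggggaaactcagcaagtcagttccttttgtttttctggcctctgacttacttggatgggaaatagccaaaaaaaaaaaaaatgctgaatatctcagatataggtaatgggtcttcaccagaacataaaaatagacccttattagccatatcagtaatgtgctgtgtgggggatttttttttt
CD36 upstream, chr7:80601957-80602149: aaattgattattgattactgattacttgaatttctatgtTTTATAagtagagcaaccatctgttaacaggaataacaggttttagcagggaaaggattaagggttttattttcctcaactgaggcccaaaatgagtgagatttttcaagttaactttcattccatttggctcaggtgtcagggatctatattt
VLDLR upstream, chr9:2621537-2621786: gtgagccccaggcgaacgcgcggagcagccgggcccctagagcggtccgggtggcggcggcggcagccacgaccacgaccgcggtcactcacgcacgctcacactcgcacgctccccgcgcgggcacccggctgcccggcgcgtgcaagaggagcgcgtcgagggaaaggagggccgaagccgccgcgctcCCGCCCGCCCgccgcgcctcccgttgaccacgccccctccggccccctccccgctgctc
SLC27A4 upstream, chr9:128340277-128340526: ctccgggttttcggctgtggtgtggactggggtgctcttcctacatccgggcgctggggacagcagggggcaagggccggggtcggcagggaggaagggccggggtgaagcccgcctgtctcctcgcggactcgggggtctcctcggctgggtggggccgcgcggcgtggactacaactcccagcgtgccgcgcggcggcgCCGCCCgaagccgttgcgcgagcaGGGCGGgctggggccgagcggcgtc
A match is a description of the letters and not a binding site.

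The nearest genes had far smaller differences than CD36. No tested gene started within 500 kb of its GENCODE start, at 80369575. The RefSeq windows of CD36 lie downstream of that start, from 80601957 to 80646445. They are nearer to the SEMA3C start at 80922359, and measured from them SEMA3C falls within 500 kb. GNAT3, which starts within 500 kb of the GENCODE start, had 2 reads with WT and 0 with ZFmut in all libraries together. The closest tested genes on either side of the GENCODE start, named after their values were seen, were GNAI1 at 602 kb and SEMA3C at 553 kb. Their log2 differences were 0.20 ± 0.06 and 0.23 ± 0.06 (edgeR adjusted p = 0.0218 and 0.00897). Both calls ended after correction for GC content and exon length, at 0.0015 and 0.09 (edgeR adjusted p = 0.989 and 0.0561), and without ZFmut replicate 3, at 0.17 and 0.21 (0.123 and 0.0529). GNAI1 also lost its call without any one of the 3 WT replicates, with adjusted p from 0.0508 to 0.0955, and in DESeq2 (0.0514).

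LPL (ENSG00000175445.14, chromosome 8, 19901717 to 19967259, plus strand) reached 8.94, 9.55 and 8.70 CPM in WT replicates 1 to 3. ZFmut replicates 1 to 3 had 5.67, 5.51 and 5.65 CPM. The 3 ZFmut libraries lay close together, at 5.61 ± 0.0886 CPM (SD), and every WT library was above them. The difference was 0.70 ± 0.09 on the log2 scale (SE), or 1.62-fold, and the alternatives gave 0.60 to 0.73.

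VLDLR (ENSG00000147852.15, chromosome 9, 2621834 to 2660053, plus strand) stood at 27.6, 25.6 and 26.5 CPM with WT. The ZFmut libraries had 21.95, 21.2 and 20.1 CPM, without overlap, and the log2 difference was 0.34 ± 0.07 (SE, 1.26-fold). After correction for GC content and exon length it was 0.21. An antisense gene, VLDLR-AS1, covers 7.9% of the exonic sequence of VLDLR on the other strand. The library kit does not mark the strand, so reads there cannot be assigned to one of the pair. VLDLR-AS1 itself differed by 0.06 ± 0.30 on the log2 scale and was not called (edgeR adjusted p = 0.895).

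SCARB1 (ENSG00000073060.15, chromosome 12, 124776856 to 124882668, minus strand) went the other way. WT replicates 1 to 3 had 73.7, 92.0 and 88.0 CPM, and ZFmut replicates 1 to 3 had 98.0, 102 and 106 CPM. WT replicate 1 was the lowest library and stood apart from its group, but the groups did not overlap. The log2 difference was -0.27 ± 0.07 (SE), a 1.21-fold lower level. It was -0.18 after GC and length correction, and without ZFmut replicate 3 it was -0.24 and no longer among the called genes. SCARB1 and CD36 belong to the same family of class B scavenger receptors, and lay on opposite sides of 0.

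SLC27A4 (ENSG00000167114.12, chromosome 9, 128340646 to 128361470, plus strand), a transport protein with acyl-CoA synthetase activity, was also lower with WT. Its libraries stood at 47.7, 54.8 and 53.3 CPM with WT and at 61.6, 74.7 and 69.0 CPM with ZFmut, without overlap. The log2 difference was -0.40 ± 0.07 (SE), a 1.32-fold lower level, and -0.24 after GC and length correction. SLC27A1 (ENSG00000130304.16, chromosome 19, 17468769 to 17506168), the transport protein known from muscle and fat, ranged from 11.2 to 11.5 CPM with WT and from 10.98 to 13.0 CPM with ZFmut. Its log2 difference of -0.07 had a 95% interval of -0.24 to 0.10. SLC27A3 (ENSG00000143554.13, chromosome 1, 153774354 to 153780157), an acyl-CoA synthetase of the family, was at 10.0 ± 0.390 CPM with WT and 10.0 ± 0.654 CPM with ZFmut. Its difference was -0.0074, with a 95% interval of -0.19 to 0.17, so the intervals of both genes leave out changes of the size seen for LPL. Of the SLC27A3 exonic sequence 8.32% is shared with INTS3 on the same strand.

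The binding proteins did not separate the groups. FABP5 (ENSG00000164687.10, chromosome 8, 81280363 to 81284777), the epidermal form, was at 25.4, 21.9 and 22.7 CPM with WT and 29.6, 23.7 and 23.9 CPM with ZFmut. ZFmut replicate 1 was the highest library, the remaining 5 lay close together, and the log2 difference was -0.14 ± 0.09 (SE, 95% interval -0.32 to 0.05). After GC and length correction it was -0.25 and counted among the lower genes. GENCODE lists 13 pseudogenes of FABP5. Reads that its copies share make its level uncertain. The pseudogenes together held 0 to 13 reads per library. FABP3 (ENSG00000121769.7, chromosome 1, 31365625 to 31376850), the heart form, rested on 17 to 74 reads per library. FABP4 (ENSG00000170323.8, chromosome 8, 81478419 to 81483263), the adipocyte form and a classical PPARG target, rested on 6 to 41. FABP3 stood at 0.760, 0.633 and 0.981 CPM with WT and 0.759, 0.709 and 0.726 with ZFmut, and FABP4 at 0.207, 0.422 and 0.348 against 0.357, 0.334 and 0.402. The libraries of both genes overlapped. Their log2 differences were 0.08 and -0.14, with 95% intervals of -0.45 to 0.61 and -0.85 to 0.57. At this depth a change of the size seen for VLDLR could not be told from none in either gene. A change as large as that of CD36 lies outside both intervals.

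**Figure D2:**
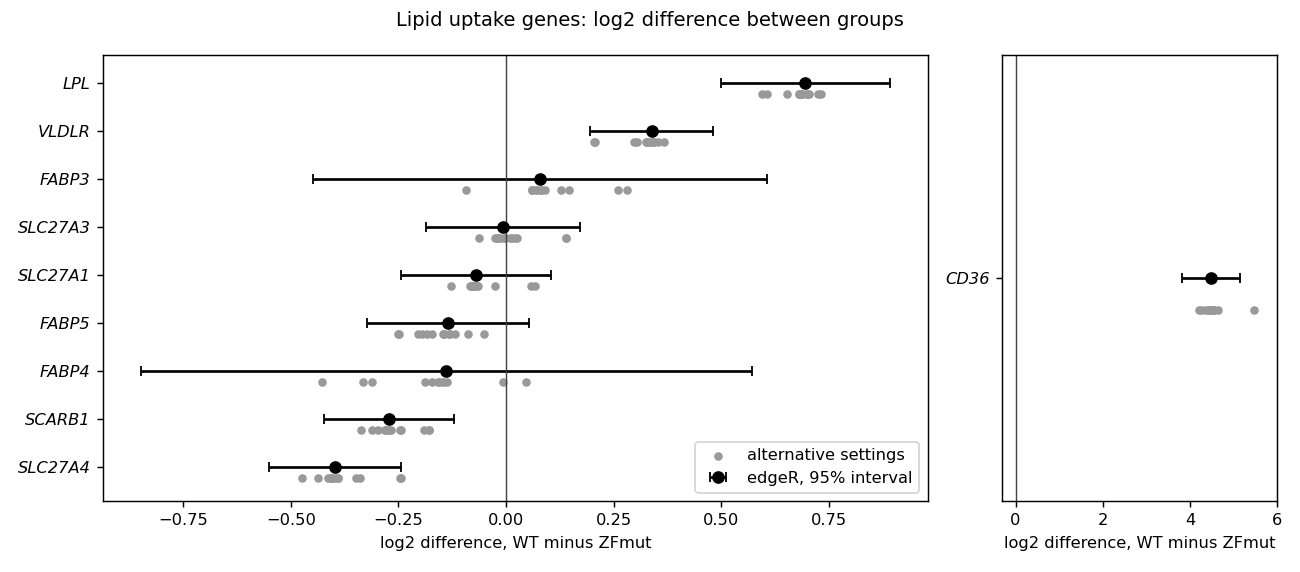
Log2 difference between WT and ZFmut (horizontal axes, WT minus ZFmut) for the 10 genes, with CD36 on an axis of its own. Black points are the edgeR values with 95% intervals, and grey points are the alternative settings. The CD36 values run from 4.22 to 5.46, while the other 9 genes stay between -0.47 and 0.73.

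Per length of exonic sequence, SLC27A4 led the members in both groups, at 16.7 ± 1.21 CPM per kb with WT and 22.01 ± 2.11 with ZFmut. FABP5 and SCARB1 followed, at 11.2 and 10.9 CPM per kb with WT and 12.4 and 13.2 with ZFmut, and their libraries overlapped in each group. VLDLR came next at 2.85 and 2.26 CPM per kb. LPL ranked 5th with WT, at 2.07 ± 0.0999 CPM per kb, and 7th with ZFmut, at 1.28 ± 0.0202, below SLC27A3 and SLC27A1. FABP3 was at 0.771 and 0.713 CPM per kb. CD36 was at 0.278 ± 0.0420 CPM per kb with WT, where it overlapped FABP4 at 0.233 ± 0.0783, and at 0.0089 with ZFmut, where it was the lowest of the 10. The remaining neighbours in these orders did not overlap. The length counts all annotated exons of a gene together, 10.88 kb for CD36 and 3.11 kb for SLC27A4. A transcript can be shorter, so levels compared between genes depend on the annotation.

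**Figure D3:**
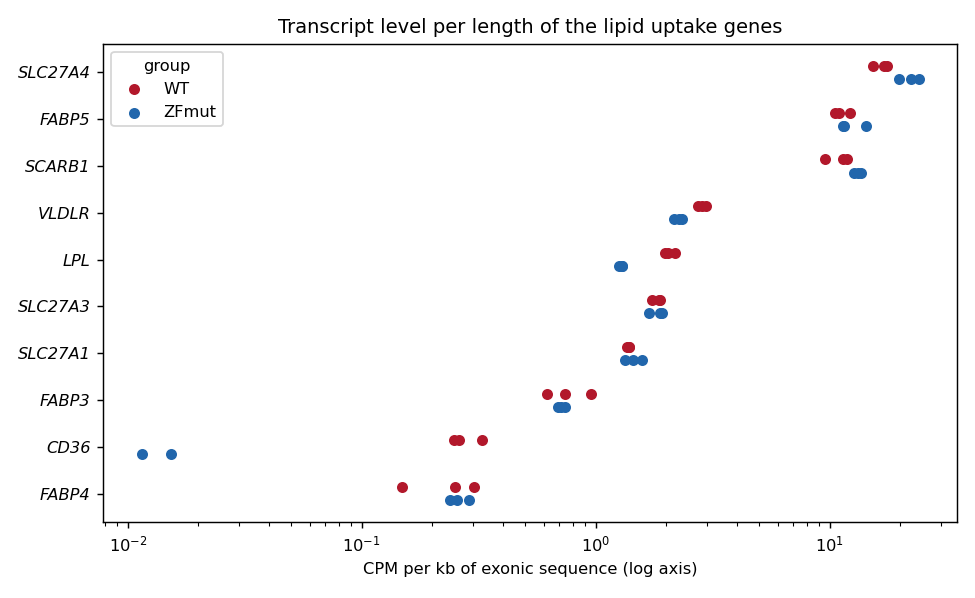
Level of each gene per kb of annotated exonic sequence (CPM per kb, log axis), 1 point per library, WT above ZFmut within each gene. The ZFmut library with 0 CD36 reads cannot be drawn on a log axis and is left out. The order of the genes changes little between groups apart from LPL and CD36.

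Among 13333 protein-coding genes with at least 1 CPM on average, the profile over the 6 libraries most like that of CD36 was that of CHRD, a BMP antagonist, with a Pearson r of 0.999 on log2 CPM. RNF19B, NATD1, NR1H2 and GLMP followed, at r from 0.998 to 0.999. CHRD was at 4.34 ± 0.167 CPM with WT and 0.968 ± 0.338 with ZFmut, and NR1H2, which encodes the oxysterol receptor LXR beta, at 116 ± 0.904 and 99.4 ± 4.35. All 5 share the group difference with CD36, which with 2 groups of 3 fixes most of r, and 636 genes had an r above 0.95.

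Around the other members, 142 tested genes started within 500 kb, of which 15 were higher and 44 lower with WT. These are 10.6% and 31.0%, beside 18.4% and 17.2% of all genes, and the difference was not tested. The 142 include FABP4 and FABP5 as neighbours of each other, and neither was called. SLC27A1 had 33 of these neighbours, 1 higher and 14 lower (42.4%), and SLC27A4 had 38, 2 higher and 13 lower (34.2%). SERINC2 and ZCCHC17 beside FABP3 were higher at 0.48 and 0.24 (edgeR adjusted p = 8.34e-06 and 0.0116). INTS10, upstream of LPL, was at -0.01 and not called. URM1 beside SLC27A4 was lower at -0.22 (edgeR adjusted p = 0.0125), or -0.13 after GC and length correction. TMEM221 beside SLC27A1 was lower at -0.93 and ATP6V1B2 beside LPL higher by 0.16 (edgeR adjusted p = 0.0261 and 0.0358), and each lost its call in DESeq2 (0.0664 and 0.0623) and in several fits without 1 library, ZFmut replicate 2 or 3 and WT replicate 3 among them (0.0699 to 0.166 over all of those), and ATP6V1B2 was at 0.02 after GC and length correction. PGLS, INTS3, GATAD2B, TRUB2, IMPA1, PAG1 and AC009902.2, also nearest neighbours, were not called. Without ZFmut replicate 3 the calls of ZCCHC17 and URM1 ended (edgeR adjusted p = 0.0775 and 0.0877).

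Beyond the members, 161 genes of lipid handling were read from 10 lists, and 136 of them were tested. With WT 33 were higher and 28 lower, which is 44.9% of those tested, against 35.6% of all genes. Where the filter asked for 5 CPM in 3 libraries, 44.5% of all genes were called. The lists were chosen with earlier results of these data known, so nothing is read from these shares. The median log2 difference of the listed genes was -0.04. After correction for GC content and exon length, 37 were higher and 40 lower. The same correction gave 18.2% higher and 23.9% lower over all 18683 genes, in place of 18.4% and 17.2%, so the corrected list counts that follow are to be read against these shares. The changes went both ways in 9 of the 10 lists, and the largest rises were those of SLC27A2, ABCG1 and ANGPTL4.

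**Figure D4:**
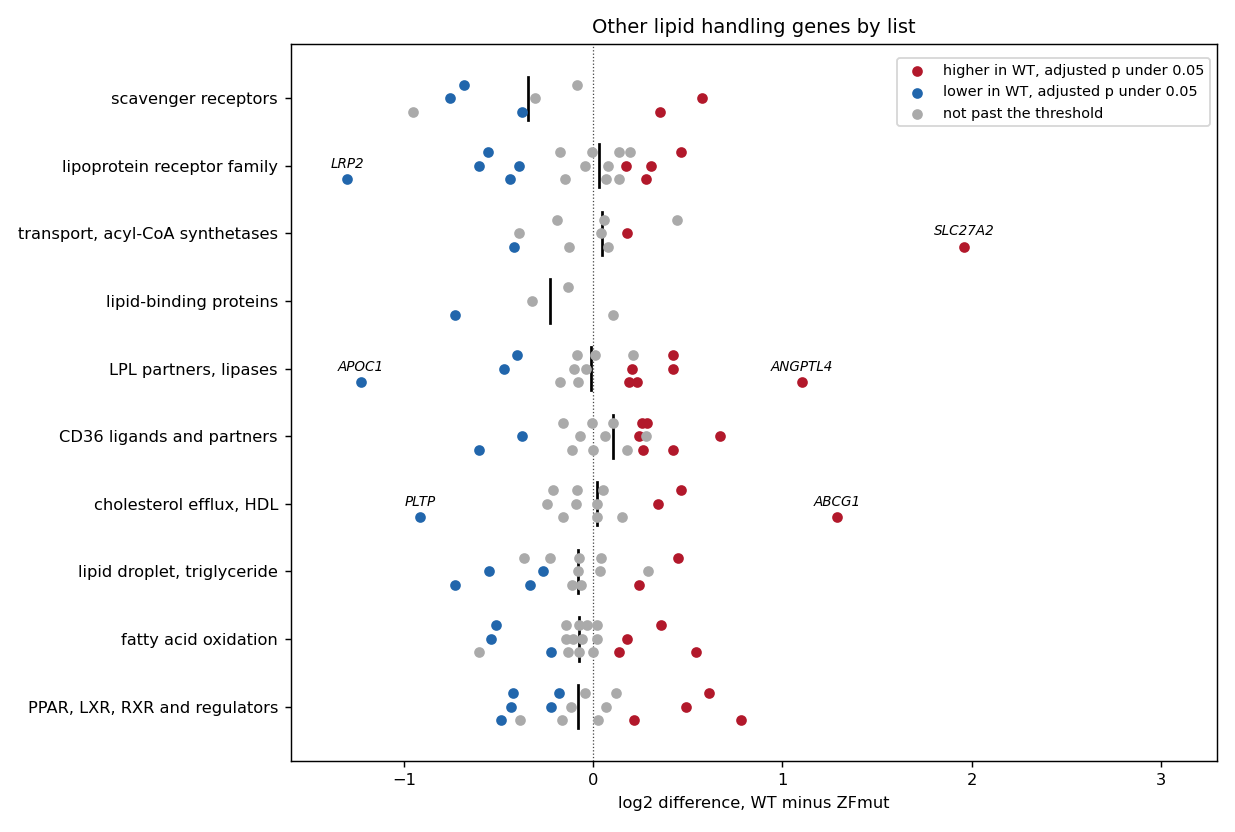
Log2 difference (horizontal axis, WT minus ZFmut) of each tested gene in the 10 lists, 1 point per gene, with the list's median as a black bar. Red genes were higher and blue genes lower with WT at an adjusted p under 0.05, and grey genes were not called. SLC27A2, ABCG1 and ANGPTL4 lie farthest to the right, LRP2 and APOC1 farthest to the left.

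Of the remaining transport proteins and acyl-CoA synthetases, 2 of 10 tested were higher and 1 lower. SLC27A2, a transport protein known from liver and kidney, stood at 5.97, 4.75 and 5.86 CPM with WT and 1.70, 1.29 and 1.33 with ZFmut. It was 3.89-fold higher (log2 difference 1.96 ± 0.15 SE, edgeR adjusted p = 2.76e-07). Of its exonic sequence 19.9% overlaps ATP8B4 on the other strand. The strand setting of the counting is not known, so whether reads there were counted or set aside is uncertain. SLC27A5, the bile acid and fatty acid form of liver, was lower at -0.42 ± 0.12 (edgeR adjusted p = 0.0120). It was the one lower gene, and its call ended without ZFmut replicate 3 (0.0844) and with counts thinned to the smallest total (0.142). ACSL4, which activates arachidonic acid, was higher by 0.18 (edgeR adjusted p = 0.0206). That call ended without WT replicate 1 or 3, and without either of ZFmut replicates 2 and 3, which left 1 higher gene, and after GC and length correction (0.01). With that correction 1 gene was higher and 4 were lower, and without ZFmut replicate 1 the lower count was 2, while lower calls over all genes were 23.9% and 20.4% at these settings against 17.2%.

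Of the LPL partners and further lipases, 6 of 16 tested were higher and 3 lower. ANGPTL4, a secreted inhibitor of LPL, was higher as LPL was and stood at 8.15, 8.09 and 7.28 CPM with WT and 3.61, 3.55 and 3.72 with ZFmut (2.15-fold, edgeR adjusted p = 1.66e-06). FURIN and PCSK6, proprotein convertases that cleave LPL and the ANGPTL proteins, were 1.34-fold higher (edgeR adjusted p = 6.89e-05 and 0.000466), the latter with 10.79% of its exonic sequence shared with genes on the other strand. LMF1, needed for LPL to fold, was at 12.4 ± 0.694 and 12.6 ± 1.10 CPM and not called. GPIHBP1, which anchors LPL on capillary endothelium, had 20 reads with WT and 9 with ZFmut and was not tested. MGLL and LIPE, lipases that act inside the cell, were lower at -0.47 and -0.40 (edgeR adjusted p = 3.20e-05 and 0.0133). The LIPE call ended without ZFmut replicate 2 or 3 (0.0576 and 0.0908), and its difference was -0.25 after GC and length correction. APOC1, an apolipoprotein that restrains LPL, was lower at -1.23 ± 0.28 (edgeR adjusted p = 0.00345) on 36 and 105 reads, and shares 43.2% of its exonic sequence with other genes. After GC and length correction 5 genes were higher and 5 lower.

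Among ligands, partners and acylation enzymes of CD36, 6 of 17 tested were higher and 2 lower. THBS1, a secreted ligand of CD36, was at 202, 194 and 215 CPM with WT and 135, 116 and 133 with ZFmut (1.59-fold higher, edgeR adjusted p = 2.12e-06). FYN, a kinase that signals downstream of CD36, was higher by 0.26 and ITGB1, an integrin subunit found with it, by 0.24 (edgeR adjusted p = 0.00150 and 0.00191). The ITGB1 difference was 0.09 after GC and length correction. CD9, a tetraspanin, was lower at -0.61, and the caveolar protein gene CAVIN1 at -0.38 (edgeR adjusted p = 4.51e-06 and 8.94e-05), or -0.24 for CAVIN1 after that correction. CAV1, the main caveolar coat protein, was at 241 ± 13.6 and 242 ± 12.4 CPM.

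Of 8 tested further scavenger receptors 2 were higher and 3 lower. SCARA3 was lower at 26.4, 31.5 and 29.03 CPM against 46.2, 52.8 and 48.6 (1.69-fold, edgeR adjusted p = 2.17e-06), and SCARF1 was 1.61-fold lower (0.000951). COLEC12 was lower at -0.38 (edgeR adjusted p = 0.0397), a call that ended without WT replicate 2 (-0.23, 0.233) or ZFmut replicate 3 (0.184), with thinned counts (0.0577) and in DESeq2 (0.101). CXCL16, a chemokine that also binds oxidised lipoprotein, was 1.49-fold higher (edgeR adjusted p = 1.63e-05). SCARB2, the lysosomal relative of CD36 and SCARB1, was higher by 0.35 ± 0.05 (edgeR adjusted p = 0.000185), or 0.18 after GC and length correction.

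In the family of lipoprotein receptors to which VLDLR belongs, with its control genes, 4 of 18 were higher and 5 lower, and 7 and 6 after GC and length correction. LRP8, the closest relative of VLDLR and like it a reelin receptor, went the opposite way to VLDLR. It stood at 28.4, 30.8 and 30.5 CPM with WT against 43.1, 43.0 and 45.4 with ZFmut (1.47-fold lower, edgeR adjusted p = 7.16e-06), with 10.35% of its exonic sequence shared with genes on the other strand. LRP4 was 1.52-fold lower (edgeR adjusted p = 1.44e-05). LRP2 was lower at -1.30 on 19 and 59 reads (edgeR adjusted p = 0.0151), a call that ended without WT replicate 2 (0.114) and in DESeq2 (0.0976). LRP12 and SORL1 were higher by 0.46 and 0.30 (edgeR adjusted p = 0.000321 and 0.00123), and LRP12 by 0.28 after GC and length correction.

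Lipid export and storage genes were split as well. Of 13 tested genes of cholesterol efflux and high-density lipoprotein, 3 were higher and 1 lower. ABCG1, which exports cholesterol, stood at 13.2, 11.5 and 11.9 CPM with WT and 4.82, 5.47 and 4.78 with ZFmut (2.45-fold higher, edgeR adjusted p = 1.77e-07). ABCA1, its partner in efflux, was 1.38-fold and NPC1, a lysosomal cholesterol transporter, 1.27-fold higher (edgeR adjusted p = 2.78e-05 and 7.73e-05). PLTP, a phospholipid transfer protein and the one lower gene, was at -0.91 with overlapping libraries (edgeR adjusted p = 0.0202). Its call ended without WT replicate 2 (0.113) or ZFmut replicate 3 (0.166), with thinned counts (-0.56, 0.189) and in DESeq2 (0.0900). Without ZFmut replicate 1, 2 were lower. Of 15 tested genes of lipid droplets and triglyceride synthesis, 2 were higher and 4 lower. PLIN4 was 1.66-fold lower, HILPDA 1.46-fold and GPAM 1.26-fold lower, while DGAT2 was 1.36-fold higher (edgeR adjusted p = 5.41e-06, 0.00023, 0.000734 and 0.00214). HILPDA shares 13.2% of its exonic sequence with other genes on its strand. PLIN2, a droplet coat protein, was higher by 0.24 (edgeR adjusted p = 0.0236), a call that ended on leaving out WT replicate 1, WT replicate 3, ZFmut replicate 2 or ZFmut replicate 3 (0.0784 to 0.104) and with thinned counts (0.0587), leaving 1 higher gene each time.

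Genes of fatty acid oxidation included 4 higher and 3 lower of 19 tested, and 3 and 7 after GC and length correction, which raised the lower calls over all genes too (to 23.9%). ETFDH was higher by 0.36, CPT1C lower at -0.54 and ACADS lower at -0.51 (edgeR adjusted p = 0.000598, 4.04e-05 and 0.00144). Of the ETFDH exonic sequence 13.8% overlaps a gene on the other strand. CPT1A, which admits fatty acids to mitochondria, was at 154 ± 1.71 and 140 ± 2.10 CPM, higher by 0.14 (edgeR adjusted p = 0.0410), and this call ended in DESeq2 (0.0633) and on leaving out any library but ZFmut replicate 2 (0.0847 to 0.158). Without WT replicate 1 or 2 the higher count was 2, and without WT replicate 3 or ZFmut replicate 3 it was 1. Without ZFmut replicate 1, 5 genes were lower. Of the lipid-binding proteins outside the members only 4 of 11 were tested, and 1 was lower. Without ZFmut replicate 1 or 3, 2 were lower, and after GC and length correction 1 was higher and 2 lower.

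Among the transcription regulators of these genes, 4 of 16 tested were higher and 5 were lower. PPARG stood at 65.7, 67.2 and 69.9 CPM with WT and 96.5, 88.4 and 87.6 with ZFmut, and was 1.34-fold lower with WT (edgeR adjusted p = 3.11e-05). Its part in the CD36 level was not tested. PPARA was 1.40-fold lower (edgeR adjusted p = 4.51e-05). PPARD was lower at -0.22 (edgeR adjusted p = 0.0172), a call that ended on leaving out WT replicate 1, ZFmut replicate 2 or ZFmut replicate 3 (0.0605 to 0.109) and after GC and length correction (-0.10, 0.0583). AHR, a receptor for aromatic ligands, was 1.72-fold higher, at 113, 98.8 and 105 CPM against 65.0, 57.5 and 61.8 (edgeR adjusted p = 2.99e-07), with 29.4% of its exonic sequence shared with genes on its strand. CEBPD and the coactivator gene PPARGC1A were 1.53-fold and 1.40-fold higher (edgeR adjusted p = 0.000445 and 0.000720). NR1H2 was higher by 0.22 (edgeR adjusted p = 0.00401), or 0.37 after GC and length correction. After GC and length correction 7 regulators were higher and 3 lower, and without ZFmut replicate 3, 3 were lower.

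**Figure D5:**
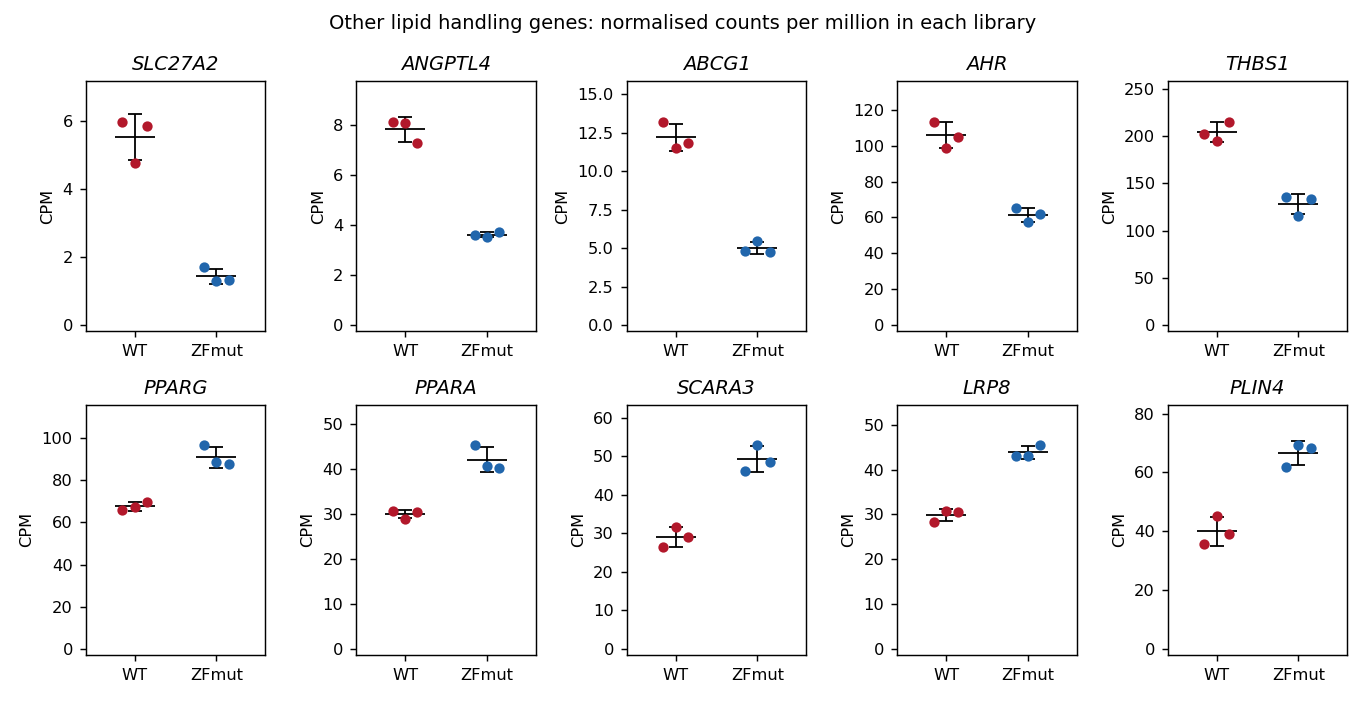
Normalised counts (CPM, axes from 0) of 10 genes outside the member list in each library, with group mean and 1 SD. SLC27A2, ANGPTL4, ABCG1, AHR and THBS1 are higher in every WT library, and PPARG, PPARA, SCARA3, LRP8 and PLIN4 lower.

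In bulk RNA a change in the number of cells of a type and a change in RNA per cell cannot be told apart. Markers of other cell types that carry CD36 are given here, and their part in the CD36 difference was not tested. The 8 endothelial markers summed to 20.1 to 21.5 CPM with WT and 28.0 to 32.8 with ZFmut, with EMCN at 0 reads. Of these markers 6 were tested and 2 were lower, PECAM1 4.29-fold and TEK 1.59-fold lower with WT (edgeR adjusted p = 4.09e-05 and 3.21e-05). The 8 macrophage markers summed to 5.39 to 6.01 and 6.36 to 6.84 CPM, and 3 were tested, with ITGAM lower (edgeR adjusted p = 0.00418). The 6 adipocyte markers summed to 11.5 to 16.7 and 17.5 to 20.6 CPM, most of it LIPE. The 6 platelet markers summed to 4.22 to 5.08 and 5.17 to 5.85, with PF4 and GP9 at 0 reads. Averaged over the libraries, 5 endothelial, 7 macrophage, 5 adipocyte and 4 platelet markers were under 1 CPM, so each sum rests on few genes. Of 13 markers of neural progenitors and medulloblastoma, 10 were tested, while ATOH1, BARHL1 and NEUROD1 stayed under the filter. SOX2 was 1.79-fold and NES 1.37-fold lower with WT (edgeR adjusted p = 1.76e-06 and 0.000404), PTCH1 was higher by 0.14 (0.0472) and lost its call whichever library was left out, and the list's sum was 1781 to 1862 CPM with WT and 1807 to 1880 with ZFmut.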

How the data were processed

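RNA was sequenced from 3 WT and 3 ZFmut libraries. The authors deposited, for each library, unnormalised read counts by Ensembl gene. Per the submitters' processing notes, the authors used cutadapt, TopHat2 2.0.9, HTSeq and DESeq2 with GRCh38. For the annotation release and the strand setting, nothing was given in the sources used here. The 5 summary lines of each file, 30.4 to 33.4% of its total, name no gene and were left out. Symbols, positions and exon lengths came from GENCODE release 29, which held 94.1% of the identifiers.

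Counts were fitted in R 4.3.3 with edgeR 4.0.16 (TMM scaling, filterByExpr, two-sided quasi-likelihood F test, no covariates, Benjamini-Hochberg adjustment over 18683 genes, threshold 0.05). Log2 differences are WT minus ZFmut. The test was tried on simulated counts. No pair of libraries within a group agreed within sampling noise (chi-square of 3.16 to 7.17 per degree of freedom). Levels are CPM over the tested genes, with TMM factors, and the limit for a count of 0 is 3 counts over all gene counts. Depth varied 4.62-fold between libraries, and intervals on reads cover counting error only.

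Named genes are the members, 12 genes taken in any case, and from each list the called genes of at least 1.5-fold with up to 3 more of smallest p. To these come the nearest tested neighbours within 500 kb and the 5 genes most like CD36. Members and lists were chosen with earlier results of these data known. The alternatives were median-of-ratios scaling, DESeq2 1.42.0, no low-count filter, a filter of 5 CPM in 3 libraries, each library left out, the replicate number as a block, thinning to the smallest total, and loess offsets (span 0.5) for GC content and exon length, also with the block. GC content is that of the GENCODE transcripts. Some genes the rule names are not reported here.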

Additional observations from a re-analysis of the deposited data

How the results depend on the processing

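Over the 14 alternatives, CD36, LPL and VLDLR were higher in each fit that tested them; CD36 was not tested with the filter of 5 CPM in 3 libraries. SCARB1 and SLC27A4 were lower in direction in all 14. Leaving out 1 library each left 3 members higher and 1 to 2 lower, 1 without ZFmut replicate 3, where SCARB1 missed the threshold (-0.24). After GC and length correction 3 members were higher and 3 lower, FABP5 being added, with 3406 genes higher and 4461 lower over the whole table (42.1% called, against 35.6%). Genes called over the whole table ranged from 2504 to 3782 higher and from 2266 to 3934 lower when 1 library was left out. With the replicate number as a block, 43 other lipid handling genes were lower and 40 higher, in place of 28 and 33. The block left the member counts at 3 and 2 and raised the whole-table calls to 4466 and 4226. Deviations of same-numbered libraries correlated at 0.164, 0.0770 and 0.0635, and every library correlated best with its own number, a hint from the data only, since not every pair passed 0.1 and the numbers were not taken as pairs. GNAI1 turned to -0.0060 with GC and length correction and the replicate block together. The causes of these changes were not tested. Few reads limit CD36 with ZFmut, FABP3 and FABP4.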
